A study of Homo sapiens with 18 samples.

Results

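Total RNA and polyadenylated RNA libraries of a breast cancer cell line were set side by side, with 10 of the 18 libraries of a study of SMARCAL1, a DNA helicase that rewinds unpaired strands at stalled replication forks. The cells were MDA-MB-436, an established triple-negative line, grown in DMEM with serum and antibiotics. Total RNA was isolated with RNeasy columns and made into TruSeq stranded total RNA libraries, 3 of the SMARCAL1 knockout line SL1KO clone 1 (TruSeq KO) and 3 of the control (TruSeq CTRL). PLATE-seq, a pooled plate assay of polyadenylated RNA from whole lysates, gave 2 libraries of the same clone (PLATE-seq KO) and 2 of the control (PLATE-seq CTRL). These 6 TruSeq and 4 PLATE-seq libraries are all those of the control and clone 1, chosen by assay and genotype from the labels and not by any measured value. The knockout is a single clone, and the labels give neither the way the gene was disrupted nor how the control was derived. No group received any other treatment. Within an assay the labels call the samples of a group biological replicates. They do not say that the cultures of both assays were the same, and in PLATE-seq the fields for source and cell line give each sample another line number, although the titles name MDA-MB-436. Assay, extraction, depth and any difference between those cultures cannot be told apart.

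The assays differ in what they can see. Most messenger RNAs end in a poly-A tail, which an oligo-dT primer can capture. Replication-dependent histone messengers are the known exception among nuclear messengers: they end just after a conserved stem-loop. The RNAs of RNA polymerase III, such as 7SL of the signal recognition particle and 7SK, which holds back the elongation factor P-TEFb, carry no poly-A tail. Nor do most small nuclear and nucleolar RNAs. In human mitochondria both strands are transcribed as long precursors. The transfer RNAs are then cut out, and most messengers gain a short tail, which in several genes also completes the stop codon. The labels do not state whether ribosomal RNA was removed before TruSeq library preparation.

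Short stretches of the reference show such ends, or the signals that mark them. The histone stem-loop is shown first in 3 messengers that were almost or wholly unseen in PLATE-seq. It is then shown in H2AFX, which was low there, and in HIST1H2AC, whose share of counts was about as high there as in TruSeq. Capitals mark the 16-base stem-loop. All are read 5′ to 3′ on the gene's own strand of GRCh38.
HIST2H2BE (chr1:149886183-149886208, minus strand): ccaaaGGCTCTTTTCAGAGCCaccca
HIST1H2AE (chr6:26217412-26217437, plus strand): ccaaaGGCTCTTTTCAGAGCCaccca
HIST1H4E (chr6:26204996-26205021, plus strand): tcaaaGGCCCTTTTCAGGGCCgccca
H2AFX (chr11:119094893-119094918, minus strand): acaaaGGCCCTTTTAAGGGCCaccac
HIST1H2AC (chr6:26124664-26124689, plus strand): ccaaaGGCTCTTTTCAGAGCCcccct
The printed stretch stops 1724 bases before the end of the annotated transcript in HIST2H2BE, 46 in HIST1H2AE, 1017 in HIST1H4E, 1039 in H2AFX and 1123 in HIST1H2AC, so only in HIST1H2AE does the annotation end near the stem-loop. The last 30 bases of the same HIST1H2AC transcript follow with those of the replacement histones H2AFZ and H3F3B, whose genes end in ordinary poly-A sites; capitals mark AATAAA.
HIST1H2AC (chr6:26139087-26139116, plus strand): tAATAAAaggtaatgcaaagggagaggaaa
H2AFZ (chr4:99948088-99948117, minus strand): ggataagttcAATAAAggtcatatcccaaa
H3F3B (chr17:75776434-75776463, minus strand): atgagactaaAATAAAatttttgaagttaa

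The second set are annotated 3′ ends of small RNAs with no poly-A tail, with the last 6 bases in capitals.
RN7SL2 (chr14:49862550-49862579, minus strand): cctgagcaacatagcgagaccccgTCTCTT
RN7SK (chr6:52995919-52995948, plus strand): gaggcgctgcatgtggcagtctgcCTTTCT
RMRP (chr9:35657751-35657780, minus strand): ccacacggggctcattctcagcgcGGCTGT
The third set are the last 15 bases of mitochondrial messengers, with the bases of the last codon in capitals. In MT-ND1, MT-ND2 and MT-ND4 that codon is incomplete in the genome.
MT-ND1 (chrM:4248-4262, plus strand): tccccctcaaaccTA
MT-ND2 (chrM:5497-5511, plus strand): tactaataatcttaT
MT-ND4 (chrM:12123-12137, plus strand): ccgggttttcctctT
MT-CO1 (chrM:7431-7445, plus strand): tacataaaatctAGA
MT-ND6 (chrM:14149-14163, minus strand): gctcgggggaatAGG
In a search of spliced GENCODE release 29 transcripts on the sense strand, the stem-loop was taken as GGCTCTTTTNAGAGCC or GGCCCTTTTNAGGGCC. It was found in 35 of 57133 symbols (0.0613%), among them 29 of 68 replication-dependent histones and 1 of 12 replacement histones, which was H2AFX. The signal AATAAA or ATTAAA stood within the last 50 bases of a transcript for 46.1% of all symbols and for all 12 replacement histones, but for 23 of 68 replication-dependent ones. These are matches of letters in annotated transcripts, and they do not show which end was used.

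The TruSeq libraries held 10257584 to 19270648 counts and the PLATE-seq libraries 1716781 and 1833636 (KO) and 890402 and 807861 (CTRL). The 29240 symbols found in both tables held 91.0 to 92.1% of the TruSeq counts and 97.6 to 97.8% of the PLATE-seq counts, and CPM are counts scaled to the same total in every library, over these symbols unless stated. Thinned to 807861 counts, the TruSeq libraries were expected to detect 16901 to 20653 symbols and the PLATE-seq libraries 10523 to 11245. TruSeq KO replicate 1 and CTRL replicates 1 and 2 detected over 35000 symbols each at full depth, and the other 3 fewer. For some of the results that moved with that split, values are given for both sets. SMARCAL1 itself was at 15.3, 15.4 and 14.8 CPM in TruSeq KO and 15.9, 15.5 and 16.6 CPM in TruSeq CTRL libraries, with 1.79 and 3.35 CPM in PLATE-seq KO and 0 and 3.80 CPM in PLATE-seq CTRL libraries. The TruSeq KO libraries lay just under the TruSeq CTRL libraries, and the PLATE-seq values rest on 0 to 6 counts a library. SMARCAL1 shares exons with another annotated gene, and a disruption that leaves the transcript in place would not be seen here. VIM, a mesenchymal intermediate filament that marks this line, averaged 1258 ± 119 CPM in TruSeq and 284 ± 28.1 CPM in PLATE-seq. The leukocyte marker list was 0.000826 to 0.00214% of TruSeq counts and 0 to 0.000380% of PLATE-seq counts, and the endothelial list 0.000285 to 0.00135% of TruSeq counts and 0 to 0.000417% of PLATE-seq counts; CD3D, CDH5 and VWF had no PLATE-seq count, and no member of either list reached the level tested.

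RNA classes divided the assays. The question was what share of each library went to each class of RNA, with all symbols of a table as the denominator. Mitochondrial messengers took 0.476% ± 0.227 of TruSeq counts and 27.9% ± 0.636 of PLATE-seq counts (mean ± SD, n = 6 and 4), a 58.6-fold lower share in TruSeq. Mitochondrial ribosomal RNA took 0.0457% ± 0.0119 of TruSeq counts and 3.50% ± 0.527 of PLATE-seq counts. In the other direction, 7SL and 7SK RNA took 2.78% ± 1.04 of TruSeq counts and 0.000422% ± 0.000240 of PLATE-seq counts. The RNA components of RNase MRP and RNase P with other ribozymes took 0.943% ± 0.425 of TruSeq counts and 0.000138% ± 0.000165 of PLATE-seq counts, and small nuclear, nucleolar and Cajal body RNAs took 1.36% ± 0.596 of TruSeq counts and 0.00454% ± 0.00135 of PLATE-seq counts. Replication-dependent histone messengers took 0.663% ± 0.107 of TruSeq counts and 0.0169% ± 0.00394 of PLATE-seq counts, 39.1 times as much in TruSeq. Long non-coding RNA took 1.76% ± 0.200 of TruSeq counts and 0.585% ± 0.0282 of PLATE-seq counts. Part of that gap lay on symbols found in the TruSeq table alone. Over shared symbols it took 0.895 to 1.22% of TruSeq counts and 0.567 to 0.628% of PLATE-seq counts.

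Messengers of cytosolic ribosomal proteins took 5.34% ± 0.232 of TruSeq counts and 8.49% ± 0.292 of PLATE-seq counts, and the other protein-coding messengers of the nucleus took 82.4% ± 2.15 of TruSeq counts and 57.1% ± 0.545 of PLATE-seq counts. Of 15 classes, 14 separated all 6 TruSeq from all 4 PLATE-seq libraries. Each had an exact two-sided permutation p of 0.00952, the smallest that 6 against 4 libraries can give, and a Benjamini-Hochberg adjusted p of 0.0102 over the 15 classes. Among the 14 is a class of symbols that repeat the counts of an overlapping gene (2.82% of TruSeq and 0.00252% of PLATE-seq counts). Its members were picked by their TruSeq counts, so its p is no test of the assays. Another of the 14 holds symbols with no type in the annotation (0.113% of TruSeq and 2.34% of PLATE-seq counts). Over shared symbols that class was 0.0847 percentage points higher in TruSeq, so its direction rests on the symbols compared. Mitochondrial transfer RNA did not separate them, with 0.0372% ± 0.0285 of TruSeq counts and 0.0192% ± 0.00544 of PLATE-seq counts (exact permutation p = 0.333). Within TruSeq its share followed the split by symbols detected, at 0.0473 to 0.0704% in the 3 libraries with many symbols and 0.00974 to 0.0139% in the 3 with few. Mitochondrial messengers did so as well, at 0.542 to 0.762% and 0.259 to 0.321%, while the ranges of 7SL and 7SK RNA overlapped, at 1.60 to 3.27% and 2.82 to 4.38%. Several other classes moved without overlap. Mitochondrial ribosomal RNA, long non-coding RNA and other protein-coding messengers were higher in the libraries with many symbols. Histone messengers (0.539 to 0.591% and 0.739 to 0.780%) and ribozymes (0.459 to 0.614% and 1.26 to 1.42%) were lower there. So were small nuclear, nucleolar and Cajal body RNAs (0.708 to 0.929% and 1.67 to 2.16%). Shares sum to a whole, so a class that takes much of a library lowers the share of all others.

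**Figure D1:**
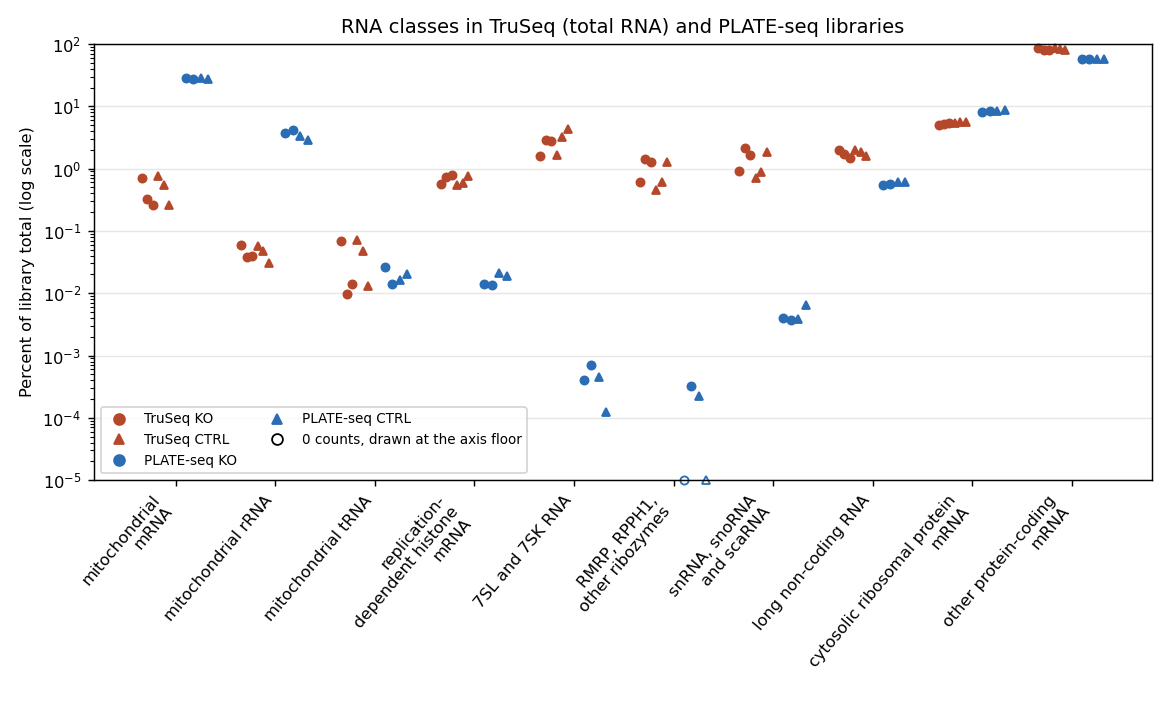
Share of each library's total count (percent, log scale) in 10 RNA classes for the 6 TruSeq libraries (red, left) and 4 PLATE-seq libraries (blue, right); circles are knockout and triangles control libraries, and open symbols are 0 counts. Mitochondrial messengers take 27.9% on average in PLATE-seq and 0.476% in TruSeq, while 7SL and 7SK RNA, ribozymes and histone messengers stand orders of magnitude higher in TruSeq.

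To name genes, each symbol's share was tested with edgeR's quasi-likelihood test over the 10 libraries, with library totals on the shared symbols as library sizes. Differences are log2 of TruSeq over PLATE-seq, each assay being the mean of its knockout and control groups, and p-values are adjusted over all 8851 symbols tested, those whose mean of the 2 assay means was at least 10 CPM. Of these, 7895 (89.2%) passed an adjusted p of 0.05, 6481 (73.2%) higher and 1414 (16%) lower in TruSeq. The libraries of the assays did not overlap for 7036 symbols (79.5%). The median difference over all symbols tested was 1.60 on the log2 scale, and 1.02 with mitochondrial symbols left out of the totals. With TMM scaling it was 0.35, and 4145 symbols (46.8%) were higher and 2989 (33.8%) lower. A difference is therefore read against 1.60: a symbol at 0 on the totals scale was below the typical nuclear symbol in TruSeq. The test gave 85.4% of symbols in knockout libraries alone and 82.3% in control libraries alone; 6888 symbols passed in both, 6879 of them with the same sign. Both assays share 1 estimate of the spread, a biological coefficient of variation of 0.129, near that of TruSeq alone (0.123) and below that of PLATE-seq alone (0.330). Limma voom with a weight for each assay, which allows for the noisier libraries, called 7189 symbols, 7187 of them among the 7895 and all of these with the same sign.

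Mitochondrially encoded RNAs differed by the strand of their gene. MT-ND2, a subunit of complex I of the respiratory chain (mitochondrial genome, 4470 to 5511, plus strand), was at 80.9 to 188 CPM (median 110.2) in TruSeq libraries, against 62662 and 62603 CPM in PLATE-seq KO and 70135 and 71611 CPM in PLATE-seq CTRL libraries. The TruSeq libraries were far below every PLATE-seq library, in which MT-ND2 had the highest CPM of all symbols (log2 difference -9.09, SE 0.29, adjusted p = 4.78e-11, 543-fold lower in the mean). MT-ND4, another complex I subunit, was at 122 to 326 CPM (median 191) in TruSeq, against 46522 and 41579 CPM in PLATE-seq KO and 55602 and 48167 CPM in PLATE-seq CTRL libraries (log2 difference -7.84, SE 0.35, adjusted p = 4.61e-10). MT-CO1, the catalytic subunit of cytochrome c oxidase, had the highest CPM of the mitochondrial messengers in TruSeq, at 943 to 2981 CPM (median 1719), against 3068 and 2834 CPM in PLATE-seq KO and 2916 and 2632 CPM in PLATE-seq CTRL libraries. Its groups overlapped, and it did not pass the test (log2 difference -0.63, SE 0.32, adjusted p = 0.0747), but with TMM scaling it was lower in TruSeq (-1.89, adjusted p = 9.80e-05).

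MT-ND6 stood apart from the other messengers. It encodes the only complex I subunit on the minus strand of the mitochondrial genome, and its messenger is known to carry little or no poly-A tail. It was at 87.7 to 742 CPM (median 319.7) in TruSeq libraries, against 19.1 and 30.2 CPM in PLATE-seq KO and 41.4 and 26.6 CPM in PLATE-seq CTRL libraries. Every TruSeq library was above every PLATE-seq library (log2 difference 3.71, SE 0.76, adjusted p = 0.000499). The TruSeq range is wide: the 3 libraries with many symbols held the 3 highest values.

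The other complex I messengers were lower in TruSeq, with log2 differences of -8.03 for MT-ND1, -7.97 for MT-ND3, -4.07 for MT-ND4L and -5.23 for MT-ND5. So were the cytochrome b messenger MT-CYB (-7.00), the cytochrome c oxidase messengers MT-CO2 (-4.95) and MT-CO3 (-3.39), and the ATP synthase messengers MT-ATP6 (-8.43) and MT-ATP8 (-5.41). MT-ATP6 and MT-ATP8 share bases, as do MT-ND4 and MT-ND4L, so their counts are uncertain. Of the 13 mitochondrial messengers 1 was higher and 11 lower in TruSeq (73.2% and 16% of all symbols), with a median of -5.41 against 1.60 over all symbols. The 6 messengers with an incomplete stop codon in the genome had a median of -7.90 (-9.09 to -3.39), and the 7 with a complete one -4.95 (-8.43 to 3.71).

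The ribosomal RNAs of the mitochondrion were lower in TruSeq as well. MT-RNR2, of the large subunit, was at 244 to 498 CPM (median 358) in TruSeq, against 33142 and 37418 CPM in PLATE-seq KO and 29937 and 25633 CPM in PLATE-seq CTRL libraries (log2 difference -6.39, SE 0.22, adjusted p = 6.86e-11). MT-RNR1, of the small subunit, differed by -5.11 (SE 0.20). Of the 22 mitochondrial transfer RNAs 9 reached the level tested. The plus strand members MT-TL1 (-1.91), MT-TT (-1.66) and MT-TI (-2.87) were lower in TruSeq, and MT-TF (-1.54, adjusted p = 0.0515) passed only with TMM scaling. The 5 minus strand members were higher. MT-TQ averaged 60.4 ± 46.9 CPM in TruSeq and 2.98 ± 0.931 CPM in PLATE-seq (log2 difference 4.34, SE 1.22, adjusted p = 0.00461). MT-TE had 1 count in the 4 PLATE-seq libraries and averaged 91.4 CPM in TruSeq, 391 times (95% counting interval 70.1 to 15430.0) the PLATE-seq level. MT-TY had 2 PLATE-seq counts and stood at 45.0 times (95% counting interval 12.4 to 372). MT-TP and MT-TS1 had none and averaged 53.3 and 21.9 CPM in TruSeq, at least 91.1 and 37.4-fold higher against a floor of 3 counts over the 4 PLATE-seq libraries (0.585 CPM).

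Over all 24 mitochondrial symbols tested, 0 of 18 on the plus strand were higher and 16 lower in TruSeq, with a median of -5.17. On the minus strand 6 of 6 were higher. Of all symbols tested 73.2% were higher and 16% lower. The 5 minus strand transfer RNAs reached the level tested only through TruSeq, so their direction follows from the filter. The signs were the same with TMM scaling and with DESeq2 size factors, but under TMM MT-TQ, MT-TY and MT-TS1 no longer passed the threshold. MT-TI, MT-TQ and MT-TY share bases with a neighbouring gene. The minus strand symbols of TruSeq moved with the split by symbols detected, as the transfer RNA class did.

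**Figure D2:**
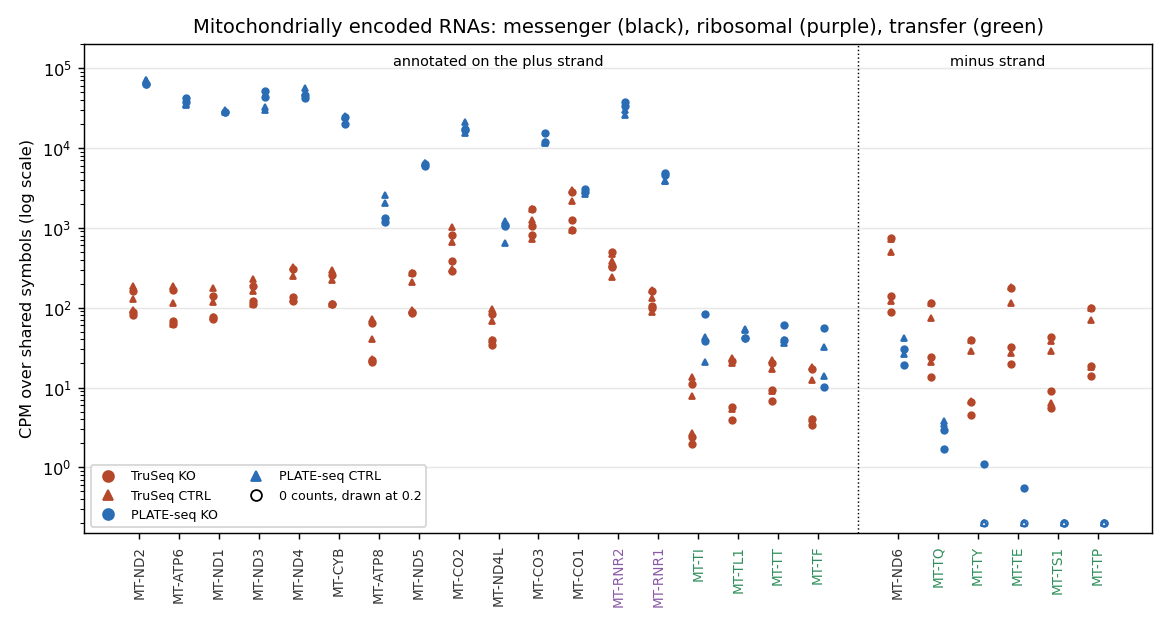
CPM over shared symbols (log scale) of the 24 mitochondrially encoded RNAs tested, in TruSeq (red, left of each tick) and PLATE-seq libraries (blue, right); circles are knockout and triangles control libraries, and open symbols are 0 counts drawn at 0.2. All 18 symbols annotated on the plus strand have a lower mean in TruSeq, and all 6 on the minus strand a higher one. The 5 minus strand transfer RNAs reached the level tested only through TruSeq.

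Histone messengers of the replication-dependent clusters, which supply chromatin during DNA synthesis, were nearly unseen in PLATE-seq. Of 68 listed, 60 reached the level tested, and 59 were higher and 0 lower in TruSeq, against 73.2% and 16% of all symbols. The median difference was 11.41, or 7.58 with symbols of 0 PLATE-seq counts at the bound that 3 counts give. As many as 37 of the 60 had 0 counts in all 4 PLATE-seq libraries. These 37 could reach the level tested only through TruSeq, so their direction follows from the filter. The whole list took 0.0173% of shared PLATE-seq counts on average, most of it on HIST1H2AC. Most other members thus also reached the level tested only through TruSeq, and the count of 59 largely follows from the filter. HIST2H2BE, a histone H2B whose stem-loop is printed above (chromosome 1, 149884459 to 149886652, minus strand), was at 394 to 568 CPM (median 469) in TruSeq, against 0 and 0 CPM in PLATE-seq KO and 0 and 3.80 CPM in PLATE-seq CTRL libraries. All 3 of its PLATE-seq counts lay in 1 CTRL library, and the TruSeq level was 823 times (95% counting interval 282 to 3989.8) the PLATE-seq level. HIST2H2BF, another H2B, averaged 441 CPM in TruSeq with no PLATE-seq count, at least 755-fold higher. The linker histone messengers HIST1H1E (208 CPM, at least 355-fold higher) and HIST1H1B (322 CPM in TruSeq and 0.596 CPM in PLATE-seq), the H3 messenger HIST1H3J (at least 328-fold), the H2A messenger HIST1H2AE (at least 199-fold) and the H4 messenger HIST1H4E (at least 228-fold) were like them. These genes are near-identical copies of one another, so the authors' counting may have split reads between them, and HIST2H2BF and HIST1H3J also share exons with other annotated genes.

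The exception was HIST1H2AC, which encodes an H2A. It was at 100.3 to 146 CPM (median 126) in TruSeq libraries, against 96.5 and 92.7 CPM in PLATE-seq KO and 187 and 152 CPM in PLATE-seq CTRL libraries, and the groups overlapped (log2 difference -0.04, SE 0.09, adjusted p = 0.670). With TMM scaling 59 members of the list were higher in TruSeq and 1 lower (46.8% and 33.8% of all symbols), and HIST1H2AC was the lower one. The next smallest differences were those of HIST3H2A (3.55; 23.9 CPM in TruSeq and 2.35 CPM in PLATE-seq), HIST1H4C (3.69) and, among the most abundant members, HIST2H2AC (5.15; 314 CPM in TruSeq and 8.88 CPM in PLATE-seq). A poly-A signal near an annotated end did not separate the members that PLATE-seq saw: of the 22 tested with such a signal 8 had a PLATE-seq count, and of the 38 without 15 did.

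The replacement histones, which are made outside S phase and whose genes carry ordinary poly-A signals, were seen by both assays. Of 11 tested, 8 were higher and 2 lower in TruSeq (73.2% and 16% of all symbols), with a median of 1.30, and with TMM scaling 5 were higher and 4 lower (46.8% and 33.8% of all symbols), with a median of 0.05. H2AFZ, the variant H2A.Z of regulatory nucleosomes, was at 308 to 377 CPM (median 344) in TruSeq, against 223 and 373 CPM in PLATE-seq KO and 284 and 318 CPM in PLATE-seq CTRL libraries. The groups overlapped (log2 difference 0.20, SE 0.13, adjusted p = 0.167), but with TMM scaling it was lower in TruSeq (-1.04). H3F3B, which encodes H3.3, averaged 309.9 ± 37.3 CPM in TruSeq and 129 ± 48.1 CPM in PLATE-seq (1.30; 0.05 with TMM). H3F3A encodes the same protein and averaged 145 ± 7.26 CPM in TruSeq and 0.586 ± 0.843 CPM in PLATE-seq, with all 4 of its PLATE-seq counts in KO libraries, 247-fold higher in the means; it shares exons with another annotated gene.

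H2AFX, the damage-signalling variant with the stem-loop, was at 63.5 to 109.5 CPM (median 84.7) in TruSeq and at 3.57 and 0.558 CPM in PLATE-seq KO and 3.45 and 2.54 CPM in PLATE-seq CTRL libraries (log2 difference 5.13, SE 0.41, adjusted p = 8.75e-08). The linker histone H1FX went the other way, at 31.1 to 47.6 CPM (median 40.0) in TruSeq and at 301 and 267 CPM in PLATE-seq KO and 342 and 332 CPM in PLATE-seq CTRL libraries (log2 difference -2.96, SE 0.13, adjusted p = 3.88e-10). H2AFJ was also lower (-0.39, adjusted p = 0.0235), with overlapping groups. The linker histone H1F0 (22.8-fold in the means, with no count in PLATE-seq CTRL), the macroH2A messenger H2AFY2 (2.51 on the log2 scale) and the centromeric variant CENPA (3.41) were higher on either scale. The macroH2A messenger H2AFY (1.00) and H2AFV (0.89) were higher with library totals, but were at -0.24 and -0.35 with TMM.

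Small structured RNAs had the highest TruSeq CPM of the symbols that PLATE-seq lacked or nearly lacked. RN7SL2, a gene of 7SL RNA (chromosome 14, 49862550 to 49862849, minus strand), was at 6174 to 18153 CPM (median 11827) in TruSeq and had no count in any PLATE-seq library, at least 19367-fold higher. RN7SL1 and RN7SL3, near-identical copies, averaged 9771 and 7302 CPM with no PLATE-seq count, at least 16702 and 12482-fold higher. RN7SK was at 5081 to 11771 CPM (median 8193) in TruSeq, against 1.79 and 0 CPM in PLATE-seq KO and 0 and 2.54 CPM in PLATE-seq CTRL libraries, 7768-fold higher (log2 difference 12.96, SE 0.46, adjusted p = 8.66e-11). RMRP, the RNA of RNase MRP, was at 2075 to 6456 CPM (median 4058) in TruSeq with no PLATE-seq count, at least 6955-fold higher. RPPH1, the RNA of RNase P, averaged 6182 ± 2934 CPM in TruSeq and 1.41 ± 1.69 CPM in PLATE-seq (log2 difference 12.001, SE 0.62, adjusted p = 1.60e-09). RN7SL1, RN7SK, RMRP and RPPH1 were lower in each of the 3 TruSeq libraries with many symbols than in any of the other 3.

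All 15 members of the list that reached the level tested were higher in TruSeq, of 37 listed, against 73.2% of all symbols. Their median was 7.55 at the bound. Of the 15, 12 had 0 counts in PLATE-seq. The whole list took at most 0.00143% of the shared counts of a PLATE-seq library. All 15 could thus reach the level tested only through TruSeq, so the direction of all 15 follows from the filter. The telomerase RNA TERC averaged 71.2 CPM (at least 122-fold higher). The Cajal body RNAs, which guide modification of spliceosomal RNA, were SCARNA10 (399 CPM, at least 682-fold), SCARNA12 (at least 187-fold), SCARNA2 (147), SCARNA7 (105), SCARNA5 (88.5) and SCARNA13 (61.5), the last 5 also as lower bounds on the fold. The small nucleolar RNA SNORD17 and the U2 gene RNU2-2P stood at least 113 and 85.8-fold higher, and SNORA73B, with 3 PLATE-seq counts, at 532 times (95% counting interval 182 to 2578). Among the 12 largest differences towards TruSeq were also SNORD3B-2, SNORD3C and SNORD3D, genes of U3 RNA, which guides cleavage of the ribosomal RNA precursor, with means of 1377, 1347 and 1350.3 CPM and no PLATE-seq count. RN7SKP80 (939 CPM), a 7SK pseudogene, and AC007952.4 (1355 CPM), which overlaps SNORD3D, may hold reads of those genes.

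Long non-coding RNAs went both ways. MALAT1, a nuclear speckle RNA whose 3′ end is a triple helix in place of a poly-A tail (chromosome 11, 65497688 to 65506516, plus strand), was at 1148 to 3080.5 CPM (median 1978) in TruSeq, against 178 and 159 CPM in PLATE-seq KO and 240.2 and 247 CPM in PLATE-seq CTRL libraries (log2 difference 3.29, SE 0.31, adjusted p = 3.92e-07). All TruSeq libraries were above all PLATE-seq libraries. NEAT1, the scaffold of paraspeckles, has a short polyadenylated form and a long form with a triple helix. It was at 236 to 1419.9 CPM (median 717) in TruSeq, against 315 and 246 CPM in PLATE-seq KO and 902 and 567 CPM in PLATE-seq CTRL libraries, with overlapping groups (log2 difference 0.73, SE 0.53, adjusted p = 0.207; -0.54 with TMM). Both RNAs were higher in each of the 3 TruSeq libraries with many symbols than in any of the other 3, and the NEAT1 difference was -0.90 over the 3 libraries with few symbols.

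Of the 14 nuclear and antisense long non-coding RNAs tested, 8 were higher and 4 lower in TruSeq (73.2% and 16% of all symbols), with a median of 1.21; with TMM 5 were higher and 5 lower (46.8% and 33.8% of all symbols), with a median of -0.03. LINC-PINT (4.38), FTX (2.80) and the microRNA host MIR22HG (2.72) were higher on either scale. MIR17HG, another microRNA host, had no count in PLATE-seq CTRL libraries and was 23.9-fold higher in the means. OIP5-AS1 averaged 136 ± 11.6 CPM in TruSeq and 51.0 ± 14.5 CPM in PLATE-seq (1.44), TUG1 was 1.28 higher, and HCG18 1.14 higher (-0.11 with TMM). OIP5-AS1 and TUG1 did not pass with TMM. PVT1, a neighbour of MYC, was lower in TruSeq, at 34.7 to 37.9 CPM (median 36.8) against 141 and 149.7 CPM in PLATE-seq KO and 111 and 155 CPM in PLATE-seq CTRL libraries (log2 difference -1.92, SE 0.11, adjusted p = 3.14e-09). ZFAS1 (-0.82), DANCR (-1.02) and EPB41L4A-AS1 (-1.70) were lower too, and JPX (-0.22, adjusted p = 0.147) did not pass.

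The snoRNA host genes, whose introns carry small nucleolar RNAs while their spliced transcripts are polyadenylated, were as divided, with 7 higher and 4 lower of 13 (73.2% and 16% of all symbols) and a median of 0.60. With TMM 3 were higher and 8 lower (46.8% and 33.8% of all symbols), with a median of -0.65. SNHG5 was at 212 to 267 CPM (median 227) in TruSeq, against 949 and 1126 CPM in PLATE-seq KO and 756 and 785 CPM in PLATE-seq CTRL libraries (log2 difference -1.95, SE 0.09, adjusted p = 7.04e-10). SNHG8 (-2.29), SNHG17 (-0.70) and SNHG16 (-0.23) were lower as well. SNHG3 was at 281 to 593 CPM (median 434) in TruSeq, against 23.2 and 22.3 CPM in PLATE-seq KO and 35.6 and 33.0 CPM in PLATE-seq CTRL libraries (log2 difference 3.97, SE 0.29, adjusted p = 3.59e-08). SNHG14 (3.01) was higher on either scale, SNHG7 (1.62) and SNHG12 (1.59) passed only with library totals, and SNHG4, with no PLATE-seq count, was at least 48.7-fold higher. SNHG6 (0.75) and SNHG1 (0.60) were higher with library totals only (-0.50 and -0.65 with TMM), and GAS5 (0.25) and SNHG15 (0.10) did not pass. SNORA73B lies in an intron of SNHG3, and without a stated strand or intron rule their reads cannot be fully parted. All of these host genes share exons with other annotated genes.

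The symbols with the highest CPM, not divided by length, hardly overlapped. The 10 with the highest mean in TruSeq were EEF1A1, RN7SL2, RN7SL1, RN7SK, GAPDH, FLNA, RN7SL3, RPPH1, ACTB and RMRP. In PLATE-seq they were MT-ND2, MT-ND4, MT-ND3, MT-ATP6, MT-RNR2, MT-ND1, MT-CYB, MT2A, TUBA1B and MT-CO2. None was in both lists; of the top 100 in each assay 25 were shared, and of the top 1000, 428. The TruSeq counts were spread over more symbols: 946 ± 101 symbols held 50% of a TruSeq library and 58.8 ± 2.99 of a PLATE-seq library (exact permutation p = 0.00952). Without mitochondrial symbols these were 949 ± 105 and 301 ± 19.8, so PLATE-seq stayed the more concentrated. The 10 top symbols took 8.32% ± 1.89 of a TruSeq library and 32.9% ± 0.342 of a PLATE-seq library.

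EEF1A1, which delivers aminoacyl-tRNA to the ribosome, was the top symbol of TruSeq at 11297 to 12209 CPM (median 11749.5), against 34.0 and 27.4 CPM in PLATE-seq KO and 60.9 and 40.6 CPM in PLATE-seq CTRL libraries (log2 difference 8.21, SE 0.18, adjusted p = 6.34e-12). It has 37 annotated processed pseudogenes, and how reads that match several copies were counted is not stated, so this value is uncertain. FLNA, the actin crosslinker filamin A, was at 6049 to 8706 CPM (median 7274) in TruSeq, against 496 and 312 CPM in PLATE-seq KO and 511 and 553 CPM in PLATE-seq CTRL libraries (log2 difference 3.98, SE 0.18, adjusted p = 5.91e-10). GAPDH, with 61 processed pseudogenes, averaged 8199.7 ± 813 CPM in TruSeq and 5152 ± 993 CPM in PLATE-seq (0.68; -0.56 with TMM), and ACTB, beta-actin, 5408 ± 564 CPM in TruSeq and 3015 ± 828 CPM in PLATE-seq (0.88; -0.36 with TMM), so the direction of both rests on the scaling. MT2A, a metal-binding metallothionein encoded in the nucleus, was at 119 to 175 CPM (median 137) in TruSeq, against 19982 and 20436 CPM in PLATE-seq KO and 16617 and 35993 CPM in PLATE-seq CTRL libraries (log2 difference -7.35, SE 0.22, adjusted p = 3.41e-11). TUBA1B, an alpha-tubulin, was at 1924 to 2398 CPM (median 2107) in TruSeq, against 21059.6 and 17004 CPM in PLATE-seq KO and 23634 and 22720.4 CPM in PLATE-seq CTRL libraries (log2 difference -3.30, SE 0.12, adjusted p = 9.16e-11).

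The 12 largest differences towards PLATE-seq were 7 mitochondrial symbols, MT2A, MTRNR2L3, and a few short messengers. PPDPF, a small protein named for pancreatic differentiation, averaged 8.47 ± 2.04 CPM in TruSeq and 1061 ± 137 CPM in PLATE-seq (-6.96). S100A11, a calcium-binding protein, was at 122 to 177 CPM (median 154) in TruSeq, against 14006 and 14123 CPM in PLATE-seq KO and 10288 and 10486 CPM in PLATE-seq CTRL libraries (log2 difference -6.34, SE 0.13, adjusted p = 3.59e-12). KRT81, a hair keratin, averaged 0.372 ± 0.433 CPM in TruSeq and 106 ± 21.6 CPM in PLATE-seq, and MTRNR2L3, a nuclear relative of MT-RNR2, had 3 counts over all 6 TruSeq libraries against 307 and 245 CPM in PLATE-seq KO and 280.4 and 228 CPM in PLATE-seq CTRL libraries. Its sequence is close to that of MT-RNR2, so its counts are uncertain.

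Messengers that all carry a poly-A tail also differed between the assays. Among 21 translation factors 20 were higher and 0 lower in TruSeq (73.2% and 16% of all symbols), with a median of 2.68; 16 were higher and 4 lower with TMM (46.8% and 33.8% of all symbols), with a median of 1.44. NPM1, a nucleolar chaperone of ribosome assembly, was at 2973 to 4298 CPM (median 3589.6) in TruSeq, against 206 and 418 CPM in PLATE-seq KO and 144 and 191 CPM in PLATE-seq CTRL libraries (log2 difference 3.98, SE 0.22, adjusted p = 3.15e-09). It has 45 processed pseudogenes. EEF2, the translocase of elongation, was 1.94 higher, and TPT1, a growth-related protein, 1.02 higher (-0.22 with TMM). EIF3L, a subunit of initiation factor 3, had 2 PLATE-seq counts and stood at 569 times (95% counting interval 158 to 4701) the PLATE-seq level. The smallest differences were those of EIF3H (0.41), EIF5A (0.41) and the poly-A binding protein PABPC1 (0.17, adjusted p = 0.163), which were all lower in TruSeq with TMM (-0.83, -0.83 and -1.07).

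The 79 cytosolic ribosomal protein messengers were divided, although all are among the most abundant messengers of a cell: 43 were higher and 26 lower in TruSeq (73.2% and 16% of all symbols), with a median of 0.49. With TMM 27 were higher and 46 lower (46.8% and 33.8% of all symbols), with a median of -0.75. RPL37, of the large subunit, was at 1053 to 1280.3 CPM (median 1166) in TruSeq, against 13356 and 14415 CPM in PLATE-seq KO and 12124 and 12747 CPM in PLATE-seq CTRL libraries (log2 difference -3.49, SE 0.11, adjusted p = 4.52e-11). The TruSeq libraries were all below the PLATE-seq libraries. RPL35 averaged 730.0 ± 41.5 CPM in TruSeq and 5245 ± 552 CPM in PLATE-seq (-2.84), and RPS16, of the small subunit, 218 ± 20.5 CPM in TruSeq and 2355 ± 1406 CPM in PLATE-seq (-3.36). At the other end RPL17 was at 487 to 579 CPM (median 551) in TruSeq with 1 count in all 4 PLATE-seq libraries. RPS26, with 1 PLATE-seq count, was at 176 to 239 CPM (median 196) in TruSeq, and RPL36A, with 3, averaged 566 CPM. The TruSeq levels of these 3 stood at 2748 times (95% counting interval 493 to 108562), 1011 times (95% counting interval 181 to 39924) and 951 times (95% counting interval 325 to 4611) the PLATE-seq levels. RPL17 and RPL36A share exons with the read-through genes RPL17-C18orf32 and RPL36A-HNRNPH2, and ribosomal protein genes have many pseudogenes.

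Nearly all long messengers of the cytoskeleton and of adhesion were higher in TruSeq. Of 31 tested, 30 were higher and 0 lower in TruSeq (73.2% and 16% of all symbols), with a median of 3.18, and 23 were higher and 2 lower with TMM (46.8% and 33.8% of all symbols), with a median of 1.93. Besides FLNA, PLEC, the linker protein plectin, was at 1154 to 1943 CPM (median 1436) in TruSeq, against 42.3 and 45.2 CPM in PLATE-seq KO and 41.4 and 35.5 CPM in PLATE-seq CTRL libraries (log2 difference 5.16, SE 0.17, adjusted p = 5.90e-11). AHNAK, a giant scaffold protein, was 3.26 higher and MYH9, non-muscle myosin, 3.01 higher. The largest differences were those of FLNC (6.46), a filamin, TNC (6.21), the matrix protein tenascin C, and FN1 (5.63), fibronectin. TLN1, which links integrins to actin, was the exception: it averaged 435 ± 63.8 CPM in TruSeq and 483 ± 42.4 CPM in PLATE-seq, did not pass with library totals (log2 difference -0.16, SE 0.10, adjusted p = 0.164) and was lower with TMM (-1.40). KMT2A, a histone methyltransferase, and CENPF, a kinetochore protein, were 0.27 and 1.07 higher with library totals, and at -0.97 and -0.18 with TMM.

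Short messengers of the cytoskeleton and of calcium binding were divided. Of 30 tested, 16 were higher and 13 lower in TruSeq (73.2% and 16% of all symbols), with a median of 0.37, and 5 were higher and 19 lower with TMM (46.8% and 33.8% of all symbols), with a median of -0.88. S100A6, a calcium-binding protein like S100A11, averaged 1099 ± 255 CPM in TruSeq and 9116 ± 1789 CPM in PLATE-seq (-3.06). TUBA1A, a paralogue of TUBA1B, differed the other way, at 296 to 686 CPM (median 458) in TruSeq, against 7.15 and 12.8 CPM in PLATE-seq KO and 4.60 and 0 CPM in PLATE-seq CTRL libraries (log2 difference 6.60, SE 0.47, adjusted p = 2.72e-08). TUBA1A and TUBA1B share much of their sequence, so reads may be split between them. TMSB4X, which holds actin monomers, was 3.18 higher, and TPM3, a tropomyosin, 2.49 higher.

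Messengers of oxidative phosphorylation made in the nucleus, whose products join the mitochondrial ones, were divided too. Of 68 listed, only 53 were found in both tables by exact spelling, so the list is incomplete here. Of these 53, all tested, 22 were higher and 27 lower in TruSeq (73.2% and 16% of all symbols), with a median of -0.29. With TMM 13 were higher and 35 lower (46.8% and 33.8% of all symbols), with a median of -1.53. NDUFB2, a complex I subunit, was at 62.6 to 79.7 CPM (median 75.1) in TruSeq, against 1689 and 1677 CPM in PLATE-seq KO and 1679 and 1559.6 CPM in PLATE-seq CTRL libraries (log2 difference -4.48, SE 0.10, adjusted p = 7.67e-12). UQCRQ of complex III (-3.77) and COX4I1 (-3.10) and COX7B (-2.97) of cytochrome c oxidase were lower in TruSeq as well. NDUFV2, another complex I subunit, had 7 PLATE-seq counts and was 5.95 higher in TruSeq, SDHD of complex II 3.83 higher and NDUFA13 3.45 higher.

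Glycolysis was close to the typical symbol. Of 18 enzymes tested, 16 were higher and 1 lower in TruSeq (73.2% and 16% of all symbols), with a median of 1.64, and 10 were higher and 4 lower with TMM (46.8% and 33.8% of all symbols), with a median of 0.40. PKM, pyruvate kinase, was the one lower with library totals, at 704 to 739.6 CPM (median 723) in TruSeq, against 4586 and 4540.0 CPM in PLATE-seq KO and 4334 and 3934 CPM in PLATE-seq CTRL libraries (log2 difference -2.59, SE 0.09, adjusted p = 9.23e-11). ENO1, enolase 1, was 0.66 higher (-0.58 with TMM) and TPI1 1.50 higher, while the neuronal enolase ENO2 did not pass (-0.14; -1.38 with TMM). PGAM1, phosphoglycerate mutase, had 11 PLATE-seq counts, all in KO libraries, and was 193-fold higher in the means. HK2, a hexokinase, was 5.74 higher on the log2 scale and PFKL, a phosphofructokinase, 4.58 higher.

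Messengers of rare or short-lived kinds were mixed. Of 21 zinc finger factors of the KRAB family, which silence transposable elements, 19 were higher and 0 lower in TruSeq (73.2% and 16% of all symbols), with a median of 1.99, and 11 were higher and 3 lower with TMM (46.8% and 33.8% of all symbols), with a median of 0.74. With TMM the share that was higher is thus near that of all symbols. ZNF12 was at 111 to 173 CPM (median 135) in TruSeq, against 31.6 and 14.5 CPM in PLATE-seq KO and 13.8 and 8.88 CPM in PLATE-seq CTRL libraries (log2 difference 3.07, SE 0.21, adjusted p = 2.38e-08). ZNF33B was 1.99 higher, ZNF273 4.86 higher, and ZNF37A 1.20 higher (-0.04 with TMM). ZNF460, with 2 PLATE-seq counts, and ZNF92, with 3, stood at 265 times (95% counting interval 73.2 to 2186) and 65.3 times (95% counting interval 22.3 to 317) the PLATE-seq levels. ZNF226 (0.20) and ZNF331 (0.40) did not pass, ZNF138 did (0.64), and all 3 were lower in TruSeq with TMM (-1.04, -0.84 and -0.61).

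Of 25 immediate early and cytokine messengers, 16 were higher and 7 lower in TruSeq (73.2% and 16% of all symbols), with a median of 1.14, and 9 were higher and 11 lower with TMM (46.8% and 33.8% of all symbols), with a median of -0.10. IL1A, an inflammatory cytokine, was at 111 to 230.2 CPM (median 160.4) in TruSeq, against 957 and 870.1 CPM in PLATE-seq KO and 352 and 495 CPM in PLATE-seq CTRL libraries (log2 difference -1.96, SE 0.12, adjusted p = 9.00e-09). ZFP36L1, which directs decay of such messengers (-2.64), the chemokine CXCL3 (-1.92) and NFKBIA, the inhibitor of NF-kappa-B (-0.49), were lower as well. MYC was at 122 to 165 CPM (median 145) in TruSeq, against 3.57 and 10.1 CPM in PLATE-seq KO and 4.60 and 3.80 CPM in PLATE-seq CTRL libraries (log2 difference 4.73, SE 0.20, adjusted p = 3.70e-10). The transcription factors KLF10 (6.39) and KLF4 (4.73) were higher too. IL1B (0.53) and JUN (0.52) were higher with library totals and lower with TMM (-0.72 and -0.72).

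Of 20 listed markers of the cell line 10 were tested and 8 passed, near the 89.2% of all symbols; 6 were higher and 2 lower in TruSeq (73.2% and 16% of all symbols), with a median of 1.91; 6 were higher and 4 lower with TMM (46.8% and 33.8% of all symbols), with a median of 0.67. KRT8 and KRT18 are the paired keratins of simple epithelia. KRT8 was at 588 to 897 CPM (median 717) in TruSeq, against 12.5 and 11.7 CPM in PLATE-seq KO and 13.8 and 29.2 CPM in PLATE-seq CTRL libraries (log2 difference 5.51, SE 0.18, adjusted p = 6.38e-11), while KRT18 was 2.29 higher. VIM (2.15), the neural cadherin CDH2 (2.56), the hyaluronan receptor CD44 (1.67) and the receptor ERBB2 (4.14) were higher as well. KRT7, a keratin of ductal epithelium, was at 4.91 to 18.4 CPM (median 10.2) in TruSeq, against 217 and 174 CPM in PLATE-seq KO and 157 and 198 CPM in PLATE-seq CTRL libraries (log2 difference -4.22, SE 0.13, adjusted p = 4.92e-11). The receptor EGFR was -0.55 on the same scale, with overlapping groups. CAV1 (0.31) and the basal keratin KRT17 (-0.48, adjusted p = 0.0502) did not pass with library totals, and both were lower with TMM (-0.93 and -1.72). The basal keratin KRT5 and the epithelial cadherin CDH1 lay under the level tested: KRT5 averaged 0.181 ± 0.162 CPM in TruSeq and 17.9 ± 7.43 CPM in PLATE-seq, and CDH1 0.417 ± 0.360 CPM in TruSeq and 12.1 ± 9.95 CPM in PLATE-seq. KRT81, KRT7, KRT5 and CDH1 thus had the higher share in PLATE-seq. Assay and culture cannot be told apart here.

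**Figure D3:**
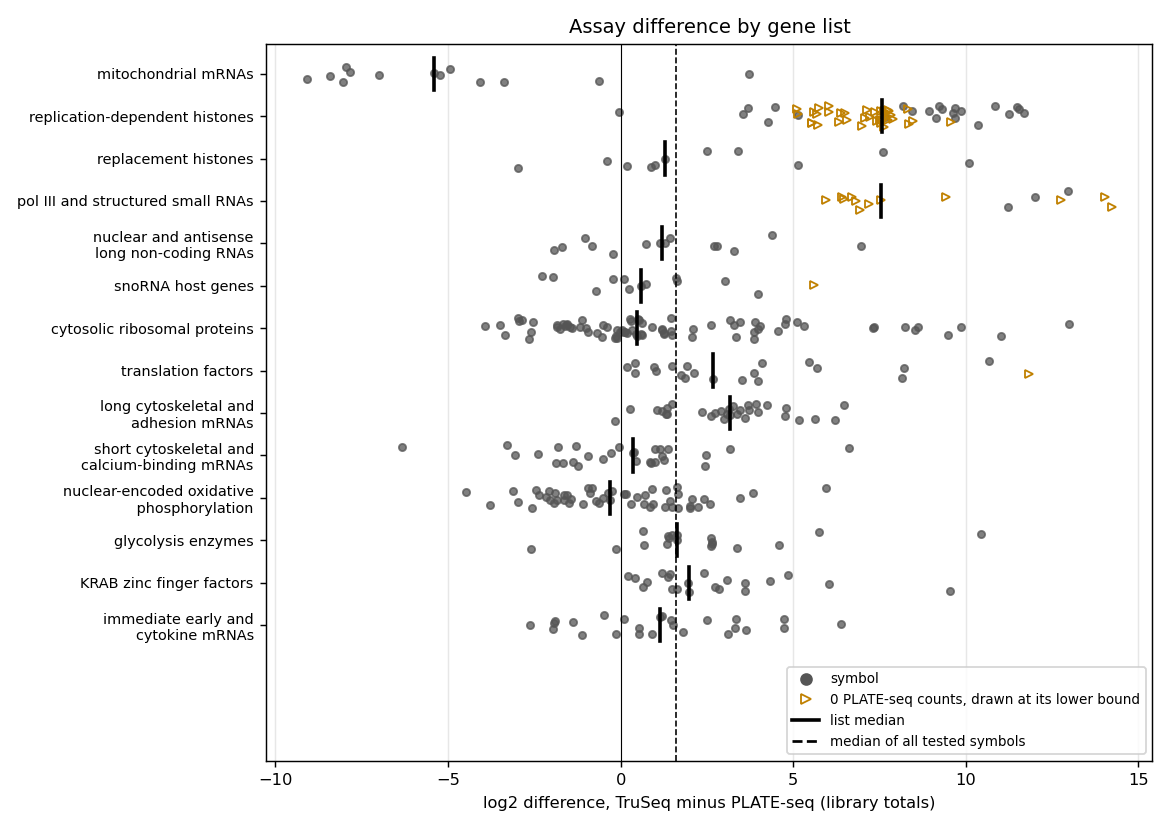
Log2 difference between TruSeq and PLATE-seq (library totals) of every tested member of 14 gene lists; each point is a symbol, an open triangle a symbol with 0 PLATE-seq counts drawn at its lower bound, the thick bar the list median and the dashed line the median of all 8851 symbols (1.60). Mitochondrial messengers lie left of 0 except MT-ND6, replication-dependent histones lie right of it except HIST1H2AC, and the ribosomal protein and oxidative phosphorylation lists spread over both sides.

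Across the 8686 protein-coding symbols tested with a length, the difference rose with the exonic length of the gene, the summed length of its annotated exons. Symbols of 1 to 2 kb had a median of 0.06, those of 2 to 3 kb 1.00, of 4 to 6 kb 1.68, of 8 to 12 kb 1.91, and those over 12 kb 2.05. Those under 1 kb, 108 in number, went against this with a median of 4.42 and an upper quartile of 11.7. They include histone and read-through symbols with no PLATE-seq count, such as HIST1H1E (754 bases, 13.78) and RPL36A-HNRNPH2 (695 bases, 15.27). The fitted differences of such symbols are uncertain, so the bin does not describe short messengers in general. Spearman's rho across symbols was 0.185, and 0.235 over the 8470 with a PLATE-seq count. Over the 24 pairs of a TruSeq and a PLATE-seq library it was 0.142 to 0.213. Genes are not independent replicates, so no p is given. The levels themselves correlated weakly, with a rho of 0.414 between the mean CPM of the assays, or 0.417 with TruSeq CPM divided by length. Between libraries of TruSeq rho was 0.961 to 0.995, between those of PLATE-seq 0.878 to 0.924, and between a TruSeq and a PLATE-seq library 0.383 to 0.415.

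**Figure D4:**
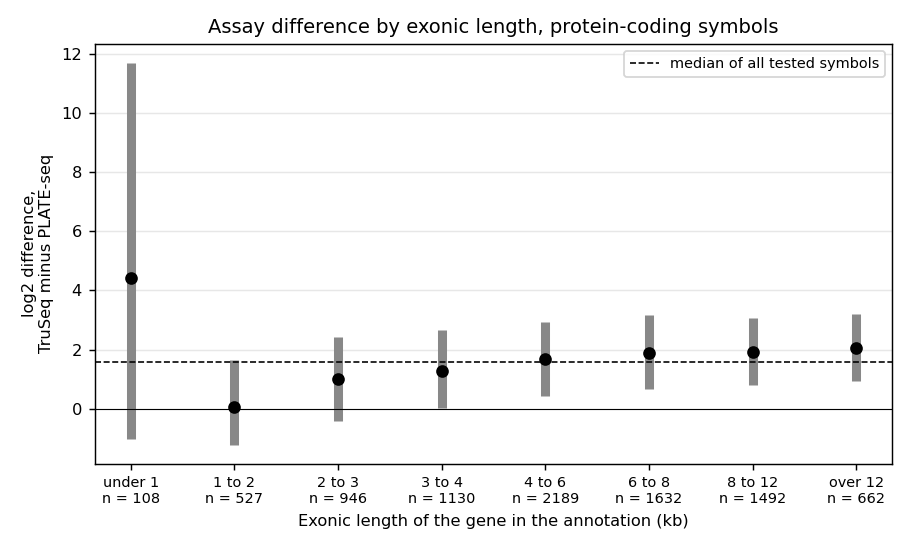
Log2 difference between TruSeq and PLATE-seq (library totals) of protein-coding symbols in bins of exonic length; points are medians, thick bars the middle 50% of symbols, and the dashed line the median of all 8851 symbols. The median is 0.06 at 1 to 2 kb and 2.05 over 12 kb, while the 108 symbols under 1 kb have a median of 4.42 and the widest spread. Those 108 include histone and read-through symbols with no PLATE-seq count.

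Some abundant messengers were missing from PLATE-seq altogether. Of 2196 protein-coding symbols with at least 100 CPM in TruSeq, 46 (2.09%) had 0 counts in all 4 PLATE-seq libraries. Of these 46, 18 were histones (of 33 such histones), 13 were hyphenated read-through genes (of 14), and 14 shared exons with another gene (of 1099). The remaining 1050 symbols gave 1, UHRF1, which reads hemimethylated DNA. UHRF1 was at 190.1 to 207 CPM (median 197) in TruSeq with no PLATE-seq count, at least 339-fold higher. EEF1G, a subunit of the elongation factor 1 complex, was at 1983 to 2314 CPM (median 2111) in TruSeq with no PLATE-seq count, at least 3665-fold higher, and SENP3-EIF4A1, a read-through gene over the helicase EIF4A1, averaged 1464 CPM, at least 2502-fold higher.

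Such genes touch how reads in shared exons were counted. In TruSeq, 21 symbols repeated the counts of an overlapping gene within 1%. One of them was AP002990.1, which repeats EEF1G. Both symbols of such a pair therefore hold about the same TruSeq counts. The counting mode is not given in the sources used here, so values of symbols that share exons are uncertain in both assays. For the 265 tested symbols (2.99%) that have 0 PLATE-seq counts, the fitted difference depends on the fit's prior. Where such symbols are named, the lower bounds above replace it, but the length bins use the fitted values.

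The knockout effect was compared between the assays last. Each assay was fitted on its own table, so these effects share no library. In TruSeq 1089 of 17371 symbols (6.27%) passed, 688 (3.96%) higher and 401 (2.31%) lower in KO. That count was 518 without TruSeq CTRL replicate 1, 199 without CTRL replicate 2, 369 without KO replicate 2 and 309 without KO replicate 3. In PLATE-seq 0 of 8595 (0.0%) passed edgeR's test fitted over all 12 PLATE-seq libraries; 704 had an unadjusted p under 0.05, and DESeq2's Wald test called 16. Of the 451 symbols higher in TruSeq KO that PLATE-seq also tested, 349 (77.4%) had the same sign there, with a median log2 change of 0.51 in TruSeq and 0.50 in PLATE-seq. Of 262 lower ones 204 (77.9%) did, with medians of -0.42 in TruSeq and -0.41 in PLATE-seq. Over all 8177 symbols tested in both, 59.9% had the same sign. Among called symbols with at least 50 CPM in PLATE-seq it was 87.0% of 169, and with 10 to 50 CPM 77.4% of 381. The share over all symbols at these levels was not taken, so these 2 values have no background of their own.

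WNT7B, a secreted Wnt ligand, had the largest change of TruSeq among symbols tested in both. It was at 10.3, 8.87 and 10.1 CPM in TruSeq KO and 2.05, 1.79 and 1.99 CPM in TruSeq CTRL libraries, and at 45.3 and 38.0 CPM in PLATE-seq KO and 3.45 and 2.54 CPM in PLATE-seq CTRL libraries. KO was above CTRL in every library of both assays (log2 2.32, SE 0.16, adjusted p = 0.000179 in TruSeq and log2 3.78, SE 0.79, adjusted p = 0.0951 in PLATE-seq). LCN2, an iron-binding lipocalin, was at 92.9, 80.3 and 89.7 CPM in TruSeq KO and 29.9, 25.3 and 28.9 CPM in TruSeq CTRL libraries, and at 118 and 118 CPM in PLATE-seq KO and 41.4 and 44.4 CPM in PLATE-seq CTRL libraries. Again no KO library overlapped with a CTRL library of its assay (log2 1.65, SE 0.09, adjusted p = 8.11e-05 in TruSeq and log2 1.48, SE 0.41, adjusted p = 0.273 in PLATE-seq). CD274, the immune checkpoint ligand PD-L1, was at 4.24, 2.25 and 1.68 CPM in TruSeq KO and 4.69, 4.64 and 3.47 CPM in TruSeq CTRL libraries, with 7.75 and 7.82 CPM in PLATE-seq KO and 12.6 and 2.54 CPM in PLATE-seq CTRL libraries. It was low in both assays, its PLATE-seq groups overlapped, and it lay under the level tested between the assays.

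The difference between the knockout effects was tested in 1 fit over the 10 libraries with TMM scaling. It passed for 6 of 8851 symbols (0.0678%), 4 (0.0452%) higher and 2 (0.0226%) lower, while 1507 had an unadjusted p under 0.05. All 6 had an adjusted p of 0.0441. CASC4, a Golgi membrane protein, was at 271, 216 and 234 CPM in TruSeq KO and 217, 199.8 and 181 CPM in TruSeq CTRL libraries, and at 1.79 and 1.12 CPM in PLATE-seq KO and 13.8 and 11.4 CPM in PLATE-seq CTRL libraries. PLATE-seq KO was far below PLATE-seq CTRL, and the TruSeq groups lay close together (difference of effects 3.29, SE 0.48, adjusted p = 0.0441). HMGN1, a nucleosome-binding protein, was at 327, 281 and 291 CPM in TruSeq KO and 313, 297 and 271 CPM in TruSeq CTRL libraries, and at 29.2 and 17.3 CPM in PLATE-seq KO and 77.0 and 87.5 CPM in PLATE-seq CTRL libraries (1.75, SE 0.26, adjusted p = 0.0441). CTBP2, a transcriptional corepressor, was at 64.9, 57.1 and 63.3 CPM in TruSeq KO and 71.9, 67.1 and 56.4 CPM in TruSeq CTRL libraries, and at 14.9 and 13.4 CPM in PLATE-seq KO and 50.6 and 54.5 CPM in PLATE-seq CTRL libraries (1.71, SE 0.26, adjusted p = 0.0441). For HMGN1 and CTBP2 PLATE-seq KO was below PLATE-seq CTRL, and the TruSeq groups overlapped.

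KNOP1, a nucleolar protein, was lower in TruSeq than in PLATE-seq, at 66.0, 63.1 and 67.3 CPM in TruSeq KO and 63.8, 67.9 and 63.1 CPM in TruSeq CTRL libraries, and at 138 and 139 CPM in PLATE-seq KO and 296 and 314 CPM in PLATE-seq CTRL libraries (1.05, SE 0.16, adjusted p = 0.0441). ACP1, a phosphatase, was at 293, 273 and 282 CPM in TruSeq KO and 281, 257 and 244 CPM in TruSeq CTRL libraries, and at 93.5 and 105 CPM in PLATE-seq KO and 40.2 and 36.8 CPM in PLATE-seq CTRL libraries (-1.35, SE 0.19, adjusted p = 0.0441). HDAC6, a cytoplasmic deacetylase of tubulin, was at 67.3, 59.6 and 67.3 CPM in TruSeq KO and 69.5, 74.6 and 69.8 CPM in TruSeq CTRL libraries, and at 20.3 and 21.8 CPM in PLATE-seq KO and 4.60 and 3.80 CPM in PLATE-seq CTRL libraries (-2.56, SE 0.39, adjusted p = 0.0441). In ACP1 and HDAC6 PLATE-seq KO was above PLATE-seq CTRL, and in KNOP1 below it. BTF3L4, a relative of a nascent chain binding protein, and USP25, a deubiquitinase, had the next lowest p and did not pass (adjusted p = 0.0532 and 0.0542). ACP1, CASC4, CTBP2, KNOP1 and BTF3L4 share exons with another gene. None of the 6 was called by voom with assay weights, and none without any one TruSeq library; leaving out a PLATE-seq library gave 102 to 314 calls, these 6 among them.

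**Figure D5:**
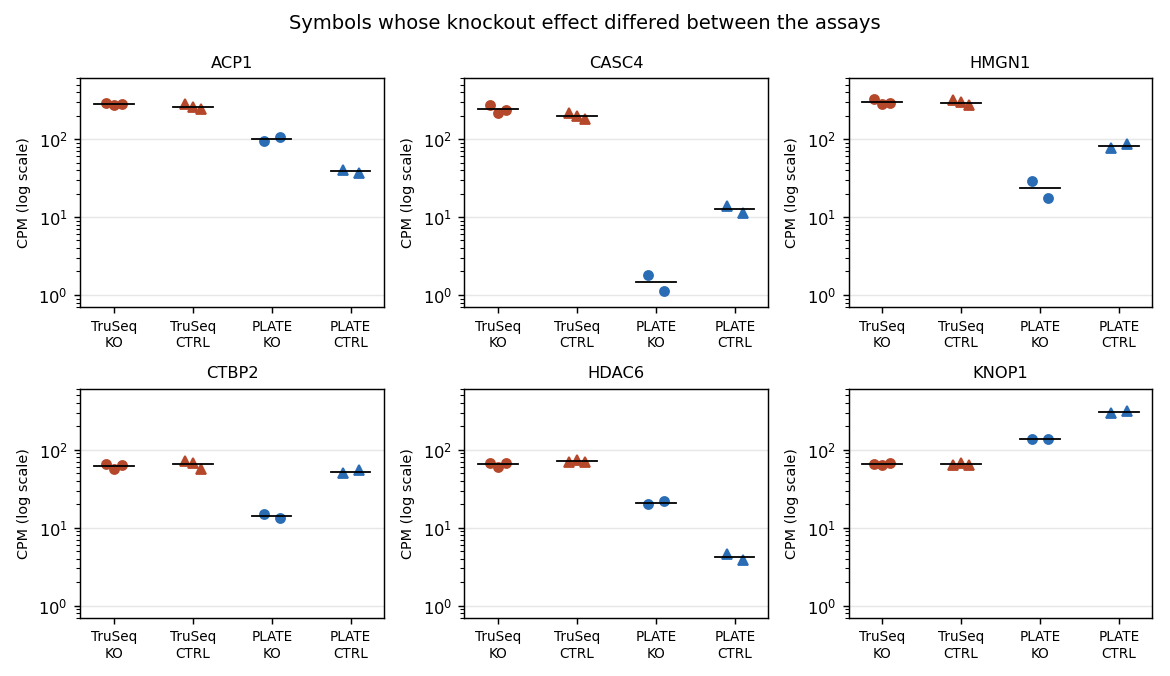
CPM over shared symbols (log scale) of the 6 symbols whose knockout effect differed between the assays, for 3 TruSeq KO, 3 TruSeq CTRL, 2 PLATE-seq KO and 2 PLATE-seq CTRL libraries; points are libraries and bars group means. In each panel the TruSeq groups lie close together and the PLATE-seq groups lie apart, as in HDAC6 with 20.3 and 21.8 CPM in PLATE-seq KO and 4.60 and 3.80 CPM in PLATE-seq CTRL.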

How the data were processed

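Read counts per gene symbol were used as deposited by the authors, 1 table for TruSeq and 1 for PLATE-seq. Per the submitters' processing notes, STAR, HTSeq and hg38 were used; versions, strand setting and counting mode are not given in the sources used here. The tables gave 57120 TruSeq symbols and 44267 PLATE-seq gene entries. The 92 spike-in entries were left out. Date-like symbols (14 and 28), which a spreadsheet can make of gene names, were counted but not removed. Depth ran from 807861 to 19270648 counts a library, and 29240 symbols found in both tables by exact spelling were compared. Gene types, lengths and coordinates came from GENCODE release 29 on GRCh38, sequences likewise.

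Counts were fitted with edgeR 4.0.16 (quasi-likelihood, Benjamini-Hochberg, adjusted p under 0.05) in R 4.3.3, with symbols kept at a mean of the 2 assay means of at least 10 CPM. Library totals scaled the assay difference and TMM the knockout effects. Alternatives used limma 3.58.1 (voom), DESeq2 1.42.0, other filters, scalings and symbol sets, a replicate block and each library left out. Class shares were tested by exact two-sided permutation over libraries with scipy 1.17.1. Intervals and the 3-count floor cover counting error only. After the real fits, the fits were also run on simulated counts drawn with the levels and spread of the real ones. Their outcome is not reported here.

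Named symbols are, by rule, SMARCAL1, CD274, the 10 highest of each assay, the 12 largest differences each way, all members of lists with up to 15 tested (of longer lists 4 by level and 3 by difference each way) and the 8 of lowest p in the difference of knockout effects. A few that the rule names are not reported here. HIST1H2AE, HIST1H4E, UHRF1, WNT7B, LCN2, KRT5, CDH1, AP002990.1 and AC016747.3 were chosen after their values were seen. The comparison, its members and the lists were chosen with earlier results of these data known. Replicates of a group are taken from the labels as biological; the labels do not say how the cultures were separated.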

Additional observations from a re-analysis of the deposited data

Results flagged for a closer look

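Of 70 groups of 4 or 6 libraries examined for a library far from its group, 3 had one, and chance alone gives about 1 in 20. The other protein-coding messengers took 57.9% of PLATE-seq CTRL replicate 2, above the other 3 PLATE-seq libraries. The small nuclear, nucleolar and Cajal body RNAs took 0.00656% of that library, again above the others. HIST2H2BE had 3.80 CPM there and 0 in the other 3 PLATE-seq libraries.

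The knockout effect differed between TruSeq and PLATE-seq for 6 symbols by a test of the difference itself. The difference of effects, on the log2 scale, was 3.29 for CASC4, 1.75 for HMGN1, 1.71 for CTBP2, 1.05 for KNOP1, -1.35 for ACP1 and -2.56 for HDAC6, each with an adjusted p of 0.0441 by edgeR's test. None of these passed with library totals, filterByExpr, a replicate block or voom, nor without any one TruSeq library. All 6 passed with both DESeq2 alternatives.

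The PLATE-seq table also holds 92 spike-in entries, which no comparison used. They took 0.0336% of SL1KO clone 1 replicate 1, 0.0381% of clone 2 replicate 1, 0.0262% of clone 3 replicate 1, 0.0230% of siSMARCAL1 replicate 1, 0.0395% of siCTRL replicate 1 and 0.0534% of CTRL replicate 1. In the 6 libraries of replicate 2 they took 0.000205 to 0.00136%.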

How the results depend on the processing

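Under all alternatives run, 3492 of the values of the 175 named symbols kept their direction and their side of the threshold, and 26 of these symbols changed sign under at least 1 alternative, 25 of them under another scaling. Of 195 RNA class values 193 kept theirs, and all 24 values for the concentration of counts did. With TMM over the 10 libraries the sign turned for H2AFZ -1.04, H2AFY -0.24, H2AFV -0.35, NEAT1 -0.54, HCG18 -0.11, SNHG1 -0.65, GAS5 -0.995, TPT1 -0.22, PABPC1 -1.07, ACTB -0.36, GAPDH -0.56, SNHG6 -0.50, SNHG15 -1.14, EIF3H -0.83, EIF5A -0.83, KMT2A -0.97, CENPF -0.18, ENO1 -0.58, ZNF37A -0.0434, ZNF226 -1.04, ZNF331 -0.84, ZNF138 -0.61, IL1B -0.72, JUN -0.72 and CAV1 -0.93. The medians that turned were nuclear and antisense long non-coding RNAs -0.0339, snoRNA host genes -0.65, cytosolic ribosomal proteins -0.75, short cytoskeletal and calcium-binding messenger RNAs -0.88 and short-lived immediate early and cytokine messenger RNAs -0.10. With DESeq2 size factors the same symbols were at H2AFZ -1.001, H2AFY -0.20, H2AFV -0.31, NEAT1 -0.50, HCG18 -0.0656, SNHG1 -0.61, GAS5 -0.96, TPT1 -0.18, PABPC1 -1.03, ACTB -0.32, GAPDH -0.52, SNHG6 -0.46, SNHG15 -1.10, EIF3H -0.79, EIF5A -0.79, KMT2A -0.93, CENPF -0.13, ENO1 -0.54, ZNF37A -0.00355, ZNF226 -0.998, ZNF331 -0.80, ZNF138 -0.57, IL1B -0.68, JUN -0.68 and CAV1 -0.89, and the medians at snoRNA host genes -0.61, cytosolic ribosomal proteins -0.71, short cytoskeletal and calcium-binding messenger RNAs -0.84 and short-lived immediate early and cytokine messenger RNAs -0.0601. With mitochondrial symbols left out of the totals those that turned were H2AFZ -0.35, GAS5 -0.30, PABPC1 -0.38, SNHG15 -0.45, EIF3H -0.14, EIF5A -0.14, KMT2A -0.28, ZNF226 -0.35, ZNF331 -0.15, IL1B -0.0207, JUN -0.0306 and CAV1 -0.24, and the medians snoRNA host genes -0.30, cytosolic ribosomal proteins -0.0642 and short cytoskeletal and calcium-binding messenger RNAs -0.18. These scalings divide each library by another total, so they shift all symbols together.

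With no filter, 11926 symbols passed between the assays, 221 in the difference of knockout effects and 36 in the PLATE-seq knockout, and the length rho was 0.0827. At a mean of at least 50 CPM, with fewer symbols tested, 3214 passed between the assays, 3091 in knockout and 3071 in control libraries, the length rho was 0.267 and the median of the nuclear and antisense long non-coding RNAs -0.22. Without symbols that share exons 3800 passed, the length rho was 0.214 and the median of the identity markers -0.0835; with filterByExpr the rho was 0.135. In the difference of knockout effects the count of 6 became 0 with library totals, 11 with DESeq2 size factors, 522 with the DESeq2 Wald test, 25 with voom (0 of them among the 6) and 0 with filterByExpr, and the cause was not tested. The DESeq2 Wald test called 16 symbols in the PLATE-seq knockout. Over shared symbols only, the class with no annotated type was 0.0847 percentage points higher in TruSeq. With alternatives chosen after seeing the data, the 3 TruSeq libraries with many symbols gave HIST1H2AC 0.0121, SNHG15 -0.00195 and 0 differences of knockout effects. The 3 with few gave NEAT1 -0.90, a median of -2.57 for mitochondrial transfer RNAs, a mitochondrial transfer RNA share lower by -0.00696 percentage points, and again 0.

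Leaving out each library in turn, the difference of knockout effects passed for 0 to 314 symbols: 0 without any one TruSeq library, and 102 to 314, the 6 among them, without any one PLATE-seq library. The lone PLATE-seq library left in a group is then assumed to vary like the others. The TruSeq knockout passed for 199 to 1145 symbols and the PLATE-seq knockout for 0 to 3. HIST1H2AC ranged from -0.11 to 0.0369, SNHG15 from -0.0601 to 0.29 and the median of the mitochondrial transfer RNAs from -1.94 to 4.57. Whether the replicate numbers pair the samples is not settled. The deviations of same-numbered samples correlated at 0.752, -0.382 and 0.632 in TruSeq, where replicates 1 and 3 correlated best with their own number. In PLATE-seq the value was 0.0107, which is the same for both numbers with 2 libraries a group. With a replicate block 7812 symbols passed between the assays, 0 in the difference of knockout effects, 2387 in the TruSeq knockout and 0 in the PLATE-seq knockout. PLATE-seq depth limits what it can show: 3 counts over its 4 libraries are 0.585 CPM.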

Other observations

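The study holds 8 more PLATE-seq libraries, of other knockout clones and of small interfering RNA treatments, which took no part in the comparison. Their RNA classes lay near those of the 4 PLATE-seq libraries used. Mitochondrial messengers took 21.0 to 30.5% (median 28.5%) of their counts and mitochondrial ribosomal RNA 3.21 to 6.31% (median 4.21%). Replication-dependent histone messengers took 0.00802 to 0.0237% (median 0.0150%), long non-coding RNA 0.547 to 0.719% (median 0.576%) and cytosolic ribosomal protein messengers 8.04 to 11.3% (median 8.97%). The 7SL and 7SK RNAs took at most 0.00125%. Every one of these 8 libraries was outside the range of the 6 TruSeq libraries in those 6 classes.

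A few symbols were seen almost only in PLATE-seq. AC016747.3, an intronic non-coding gene, had 1 count over the 6 TruSeq libraries and 6.55 and 22.3 CPM in PLATE-seq KO and 6.89 and 8.88 CPM in PLATE-seq CTRL libraries.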
